A study of Mus musculus with 6 samples.

Results

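The 10 genes described here encode the enzymes and regulators of de novo fatty acid synthesis, and were selected by gene symbol (*Acly*, *Acaca*, *Acacb*, *Fasn*, *Scd1*, *Elovl6*, *Me1*, *Thrsp*, *Srebf1* and *Mlxipl*). All 10 were among the 15280 genes of the expression table, each as a single entry. RNA-Seq had been performed on 3 mammary tumors (libraries T11035, T11640 and T9232) and on the adjacent normal mammary gland of the same 3 mice (M11035, M11640 and M9232), so n = 3 for each tissue. All 3 mice were transgenic BK5.ATF3 females, in which the bovine keratin 5 promoter drives the transcription factor ATF3 in basal epithelium, and each had raised 1 litter. A tumor length of 1.5 cm was the end point for the mice, and the age of onset in this line was 6 to 12 months. The glands carried the transgene too, and wild-type tissue was not analysed here. The libraries held 4750989 to 7806908 fragments on genes, and levels are given as CPM, scaled to the effective size of each library. A level of 3 fragments was taken as the floor of detection and corresponds to 0.393 to 0.610 CPM depending on the library. Floors and intervals cover counting error only.

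De novo synthesis turns citrate that leaves the mitochondrion into acetyl-CoA, carboxylates part of it to malonyl-CoA, and joins these units with electrons from NADPH into palmitate, which is then lengthened and desaturated. In the mammary gland the pathway runs in the adipocytes of the fat pad, and during lactation the alveolar epithelium raises it to make milk fat. The transcription factors encoded by *Srebf1* and *Mlxipl* link the pathway to insulin, sterols and glucose.

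All 10 genes were called lower in the tumors, at a limma adjusted p of at most 0.05 over the 15280 genes and a change of at least 2-fold. Of all genes tested, 2097 (13.7%) were called lower, 2212 (14.5%) higher and 4309 (28.2%) in either direction. In each of the 10 genes all 3 tumors lay below all 3 glands, an arrangement found in 4022 genes (26.3%) of the table. The median log2 fold change (tumor minus normal gland) of the 10 genes was -5.32, against -0.0028 over all genes, and it was -4.95 in the pair of T11035 and M11035, -5.56 in that of T11640 and M11640 and -4.96 in that of T9232 and M9232. These are bulk tissues, in which fewer cells of a type and less RNA per cell cannot be told apart. White adipocyte markers moved with the 10 genes. All 12 markers of that list were called lower, with a median log2 fold change of -5.95, or -6.15 with the tumor level of *Lep* (1, 3 and 2 fragments, not above the floor) set to the floor. With edgeR and DESeq2 this median was -6.89 and -6.92, and that of the 10 genes was -5.47 in both. The summed level of the markers was 9425, 13851 and 7590 CPM in M11035, M11640 and M9232 and 259, 373 and 288 CPM in T11035, T11640 and T9232. The most abundant of them, *Fabp4*, was still at 132 to 186 CPM in the tumors, and no marker of the list was at 0 in every tumor. The part of adipocyte content in the fall of the synthesis genes was not tested.

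**Figure D1:**
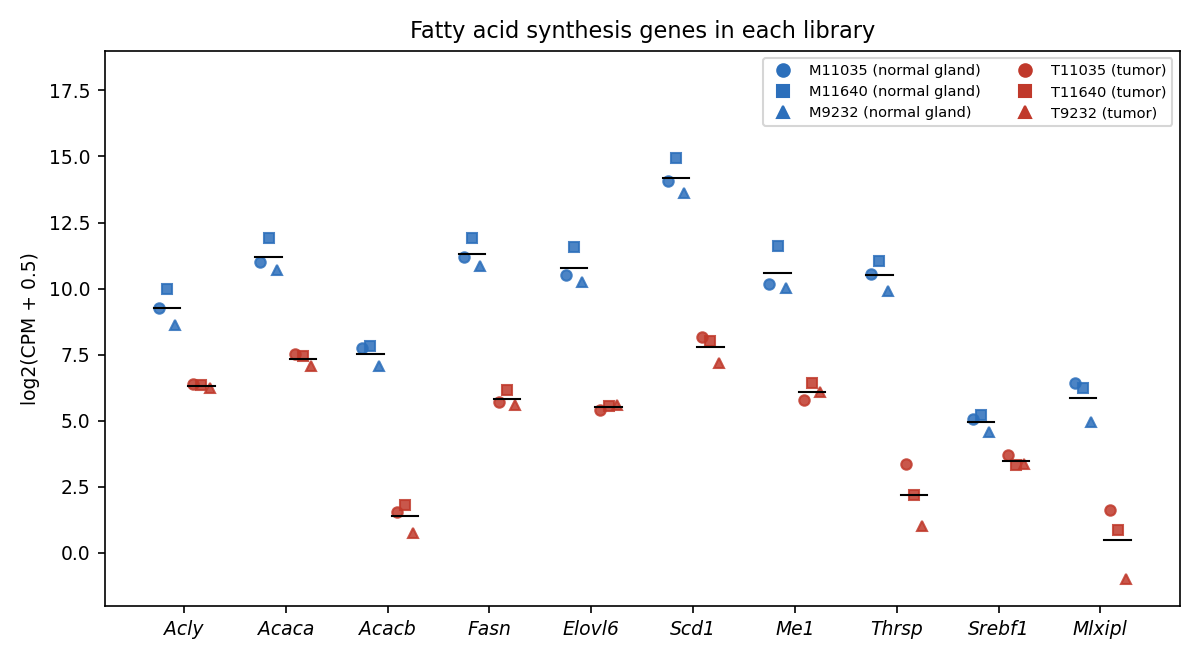
Level of each gene in each library on a log2 scale, log2(CPM + 0.5). Blue symbols are normal glands, red symbols are tumors, each symbol shape is 1 mouse and the black bars are means of 3 libraries. In all 10 genes the 3 tumors lie below the 3 glands, by the smallest margin in *Srebf1* and the largest in *Thrsp*.

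The first enzyme, ATP citrate lyase, splits cytosolic citrate into acetyl-CoA and oxaloacetate. Its gene *Acly* (mm9 chr11:100337667-100389314, minus strand) was at 607, 1011 and 393 CPM in glands M11035, M11640 and M9232 and at 83.0, 81.4 and 74.6 CPM in tumors T11035, T11640 and T9232. The tumors lay close together, while the glands spread widely, and the lowest gland was still above the highest tumor. *Acly* fell by 2.96 on the log2 scale (SE 0.30, limma adjusted p = 1.07e-04). Among the 10 genes only *Srebf1* fell less.

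Acetyl-CoA carboxylase makes malonyl-CoA, and the gland expresses 2 forms of it. The form encoded by *Acaca* is cytosolic and supplies fatty acid synthase, whereas the form encoded by *Acacb* sits at the mitochondrial outer membrane, where its malonyl-CoA restrains carnitine palmitoyltransferase and fatty acid oxidation. *Acaca* (mm9 chr11:83943174-84215153, plus strand) was at 2060, 3853 and 1680 CPM in the glands and at 183, 172 and 135 CPM in the tumors, with the libraries of each tissue in the same order as before, here and below. It remained above 100 CPM in every tumor, although every tumor lay far below the lowest gland. The log2 fold change was -3.86 (SE 0.29, limma adjusted p = 2.27e-05). *Acacb* (mm9 chr5:114596544-114700770, plus strand) was at 214, 225 and 133 CPM in the glands and at 2.42, 3.01 and 1.20 CPM in the tumors. These tumor levels rest on 13, 23 and 8 fragments, above the floor in each library. The log2 fold change was -6.17 (SE 0.31, limma adjusted p = 3.72e-06).

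The 2 carboxylase genes thus fell by unequal amounts. Within a library, the ratio of *Acaca* to *Acacb* in CPM was 9.60, 17.1 and 12.7 in the glands. In the tumors it was 75.7, 57.2 and 113, without a pseudocount and without correction for transcript length. Every tumor had a higher ratio than every gland. On the log2(CPM + 0.5) scale, where the pseudocount lowers the tumor ratios, the log2 ratio differed by 2.30 (tumor minus normal gland). In a two-sided exact permutation test of 3 tumors against 3 glands this gave p = 0.1, the smallest p the design allows, and 0.15 after Benjamini-Hochberg adjustment over the 12 within-library ratios compared. The transcripts of both genes are 72.3% identical over their best alignment of 3370 bp. No transcript of any other gene matched one of the 10 genes at 95% identity or more along 500 bp.

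Fatty acid synthase carries out the whole cycle of condensation and reduction that ends in palmitate. *Fasn* (mm9 chr11:120667254-120685492, minus strand) was at 2360, 3853 and 1856 CPM in the glands, where it ranked 13, 9 and 25 among all genes by CPM. In the tumors it was at 51.7, 71.3 and 47.4 CPM and ranked 3801, 3201 and 4278. The highest tumor was thus many times lower than the lowest gland, and *Fasn* fell by 5.51 on the log2 scale (SE 0.27, limma adjusted p = 3.31e-06). Only 40 of the 15280 genes had a larger fall.

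The elongase encoded by *Elovl6* lengthens palmitate to stearate. *Elovl6* (mm9 chr3:129235304-129341413, plus strand) was at 1462, 3038 and 1217 CPM in the glands and at 42.2, 46.4 and 48.4 CPM in the tumors. The tumors differed little among themselves, and M11640 stood above the other 2 glands. The log2 fold change was -5.25 (SE 0.30, limma adjusted p = 6.82e-06).

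Stearoyl-CoA desaturase introduces a double bond into stearate and palmitate, and *Scd1* (mm9 chr19:44468941-44482199, minus strand) encodes the main form of adipose tissue. *Scd1* was at 17058, 31290 and 12468 CPM in the glands and at 290, 257 and 145 CPM in the tumors. In the glands it ranked 2, 2 and 4 among all genes by CPM, and in the tumors 589, 805 and 1567. It fell by 6.41 on the log2 scale (SE 0.36, limma adjusted p = 6.01e-06), and 18 genes of the table had a larger fall. The 10 genes together took 2.74%, 4.80% and 1.96% of all fragments in the glands and 0.0768%, 0.0716% and 0.0510% in the tumors. *Scd1* alone gave 64.3%, 64.4% and 63.0% of these member fragments in the glands but 39.6%, 35.1% and 27.4% in the tumors.

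Malic enzyme, encoded by *Me1* (mm9 chr9:86474970-86589947, minus strand), provides cytosolic NADPH for the synthase. *Me1* was at 1145, 3106 and 1049 CPM in the glands and at 54.1, 85.7 and 67.6 CPM in the tumors. M11640 was again the highest, and the other 2 glands were close to each other. The log2 fold change was -4.50 (SE 0.38, limma adjusted p = 4.60e-05). An exon of *Me1* overlaps one of *A330041J22Rik* on the opposite strand by 30 bp, and whether counting used the strand is not given in the sources used here.

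*Thrsp* (mm9 chr7:104561448-104566240, minus strand) encodes a small nuclear and cytosolic protein that is induced by thyroid hormone and carbohydrate and promotes lipogenesis. It was at 1487, 2120 and 952 CPM in the glands and at 9.86, 4.06 and 1.50 CPM in the tumors, the latter from 53, 31 and 10 fragments. The tumors differed more among themselves than for any other of the 10 genes but *Mlxipl*, yet all were far below the glands. *Thrsp* had the largest fall of the 10 genes, with a log2 fold change of -8.31 (SE 0.54, limma adjusted p = 1.15e-05), and on this scale 1 gene of the table had a larger one. The scale understates the fall of genes with few tumor fragments, such as *Ucp1*, whose pooled level was 737-fold higher in the glands (95% exact counting interval 357 to 1834). The tumor libraries pulled the log2 fold change of *Thrsp* apart, to -7.71 without T9232 and to -8.90 without T11035, and its call was kept in both cases.

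The 2 transcription factor genes differed in how far they fell. *Srebf1* (mm9 chr11:60012591-60036083, minus strand), which encodes the sterol regulatory element-binding protein that activates lipogenic promoters, was at 32.5, 36.2 and 23.3 CPM in the glands and at 12.7, 9.57 and 9.89 CPM in the tumors. The groups did not overlap, but the lowest gland lay within 2-fold of the highest tumor. *Srebf1* fell by 1.46 on the log2 scale (SE 0.22, limma adjusted p = 0.00109), the smallest fall of the 10 genes, and 1465 genes of the table fell further. Its exons overlap those of *Rai1* on the opposite strand by up to 109 bp, and fragments from this stretch may stem from *Rai1*. *Mlxipl* (mm9 chr5:135582761-135614254, plus strand) encodes the carbohydrate response element-binding protein, which responds to glucose metabolites. It was at 86.6, 75.0 and 30.4 CPM in the glands, at 2.61 and 1.31 CPM in tumors T11035 and T11640 (14 and 10 fragments), and at 0 in T9232, where the floor is 0.450 CPM. All 3 tumors lay below the lowest gland, and the log2 fold change was -5.38 (SE 0.65, limma adjusted p = 3.02e-04). This value was -4.63 without T9232 and -6.33 with a pseudocount of 0.1 in place of 0.5, and the call was kept in both cases.

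The glands differed among themselves in a shared order. M11640 was the highest gland for 9 of the 10 genes, the exception being *Mlxipl*, for which M11035 was the highest. M9232 was the lowest gland for all 10 genes. White adipocyte markers had the same order in their sum, with M11640 at 13851 CPM and M9232 at 7590 CPM. Milk protein and alveolar genes had another order, with summed levels of 3724, 5849 and 54688 CPM in M11035, M11640 and M9232, so the gland with the most milk protein transcripts had the lowest levels of all 10 synthesis genes. In the tumors no library was the highest throughout, with T11035 the highest for 6 genes, T11640 for 3 and T9232 for 1, while T9232 was the lowest for 7. These differences between mice were not tested.

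To compare the genes with each other, levels were divided by the length of the longest coding transcript of each gene, in CPM per kb. In the glands *Scd1* led with 4192 ± 2029 CPM per kb (SD, n = 3), above *Thrsp* with 1190 ± 458. Then came *Me1* (537 ± 353), *Elovl6* (320 ± 166), *Fasn* (281 ± 108), *Acaca* (266 ± 122) and *Acly* (151 ± 70.9), and last *Acacb* (21.7 ± 5.77), *Mlxipl* (17.6 ± 8.16) and *Srebf1* (7.13 ± 1.55). Only 2 steps in this order were free of overlap between the 3 libraries of both neighbours, those from *Scd1* to *Thrsp* and from *Acly* to *Acacb*. Overlap refers to ranges over the 3 libraries, and the order within each library was not compared. In the tumors *Scd1* again led, with 47.7 ± 15.6 CPM per kb, followed by *Me1* (21.0 ± 4.81), *Acly* (18.0 ± 1.0), *Acaca* (17.2 ± 2.64), *Elovl6* (7.68 ± 0.528) and *Fasn* (5.92 ± 1.33). *Thrsp* dropped from the second to the seventh place, with 4.03 ± 3.36 CPM per kb, above *Srebf1* (2.49 ± 0.395), *Mlxipl* (0.359 ± 0.358) and *Acacb* (0.252 ± 0.105). Here the libraries of neighbours did not overlap from *Scd1* to *Me1*, from *Acaca* to *Elovl6* and from *Srebf1* to *Mlxipl*.

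Paralogs of several of the 10 genes did not share their fall. *Scd2*, the stearoyl-CoA desaturase form with a wide tissue distribution, was at 239, 352 and 112 CPM in the glands and at 405, 486 and 448 CPM in the tumors. All tumors were above all glands, with a log2 fold change of 1.08 (SE 0.35, limma adjusted p = 0.0393). This call was lost in 7 of 15 alternatives, among them edgeR and DESeq2 on the recovered fragments (0.93 in both) and the fits without M11035 (1.16), M9232 (0.62), T11035 (1.14), T11640 (1.01) or T9232 (1.07). The ratio of *Scd1* to *Scd2* within a library was 71.5, 88.9 and 112 in the glands and 0.715, 0.528 and 0.324 in the tumors. *Scd1* fragments thus exceeded those of *Scd2* in every gland and were fewer in every tumor. The difference in the log2(CPM + 0.5) ratio was -7.48 (two-sided exact permutation p = 0.1, the smallest possible, 0.15 after adjustment over 12 ratios). *Scd3* was scarce, with 2.85, 2.15 and 3.83 CPM in the glands and 1.30, 0.786 and 0.749 CPM in the tumors, and was called lower (log2 fold change -1.24, limma adjusted p = 0.0172), except without M9232 (-1.06), T11640 (-1.17) or T9232 (-1.15). Its best alignment with *Scd1* is 90.4% identical over 1084 bp, and that of *Scd2* with *Scd1* 86.8% over 1261 bp, and whether fragments of *Scd1* were counted for them was not tested.

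Elongases other than *Elovl6* went in both directions. *Elovl4*, which makes very long chains in epidermis and retina, was at 0.407, 0.826 and 1.37 CPM in the glands and at 158, 413 and 331 CPM in the tumors. This rise, from 2, 5 and 10 fragments to 851, 3149 and 2210, had a log2 fold change of 7.74 (SE 0.39, limma adjusted p = 3.41e-06), or 8.33 with edgeR and 8.38 with DESeq2, which do not use the pseudocount. *Elovl7* rose from 29.3, 37.5 and 56.4 to 164, 257 and 164 CPM and *Elovl1* from 12.8, 12.9 and 16.4 to 24.7, 53.1 and 61.4 CPM, log2 fold changes of 2.25 and 1.60 (limma adjusted p = 2.77e-04 and 0.00459). *Elovl3*, an elongase of brown fat and skin, had 384 fragments in the 3 glands together and 1 in the 3 tumors. Its pooled level was 413-fold higher in the glands, with a 95% exact counting interval of 73.7 to 16366. *Elovl5* was at 184 to 255 CPM in the glands and 94.7 to 118 CPM in the tumors. The log2 fold change of -0.99 (SE 0.17) fell just short of the 2-fold threshold. It passed the threshold in 5 of 15 alternatives, among them the fits without M11035 (-1.03), M9232 (-1.09) or T11640 (-1.07).

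Each paralog of the other genes changed less than the member it resembles. *Me2*, a mitochondrial malic enzyme, was at 51.7 to 64.0 CPM in the glands and 25.5 to 33.6 CPM in the tumors (-0.92 in log2, below the threshold, or -1.02 and called without T9232). *Me3*, the other mitochondrial form, was called lower at a log2 fold change of -1.60 (limma adjusted p = 0.0124) from low levels of 4.76 ± 1.68 CPM in the glands and 1.27 ± 0.696 CPM in the tumors (SD, n = 3). *Mid1ip1*, the paralog of *Thrsp*, was at 9.99 to 16.9 CPM in the glands and 8.93 to 18.9 CPM in the tumors, and the groups overlapped (log2 fold change 0.14, limma adjusted p = 0.743). *Srebf2*, whose product mainly drives cholesterol synthesis, was at 17.8 to 30.5 CPM in the glands and 28.7 to 45.9 CPM in the tumors and was not called (log2 fold change 0.73, limma adjusted p = 0.0523). *Mlx*, the dimer partner of the *Mlxipl* product, had 6.77 to 8.54 CPM in the glands and 6.95 to 9.68 CPM in the tumors (0.07 in log2, limma adjusted p = 0.837). *Mlxip* was at 81.3 to 102 CPM in the glands and 53.0 to 58.4 CPM in the tumors without overlap, with a log2 fold change of -0.76 that lay below the 2-fold threshold.

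Genes that surround the pathway were taken from 9 lists with 104 genes, of which 100 were in the table. Of these, 38 were called lower and 9 higher, with a median log2 fold change of -0.64, and leaving out 1 library gave 34 to 41 lower and 6 to 8 higher. The supply of acetyl-CoA and citrate had the largest share of genes called lower among the 9 lists, with 9 of its 10 genes (median -2.35). The lowest was *Pcx*, pyruvate carboxylase, which refills mitochondrial oxaloacetate. It was at 48.8, 101 and 45.8 CPM in the glands. In the tumors it was at 2.61, 0.917 and 0.450 CPM (14, 7 and 3 fragments, the last at the floor). Its log2 fold change was -5.25 (SE 0.46, limma adjusted p = 5.34e-05). The gene of this list that was not called was *Slc16a1*, a monocarboxylate transporter, at 74.0 to 102 CPM in the glands and 55.4 to 65.0 CPM in the tumors (-0.61 in log2). Of 10 genes of NADPH supply, 6 were called lower (4 to 6 when 1 library was left out) and 0 higher (median -1.10), from *Tkt*, transketolase, with 194 ± 73.8 CPM in the glands and 18.8 ± 2.80 CPM in the tumors (SD, n = 3, log2 fold change -3.27), to *Mthfd1*, which was not called (0.10). No gene of this list thus fell as far as *Me1*.

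Of 11 genes of the elongation cycle, 3 were called higher (*Elovl4*, *Elovl7* and *Elovl1*) and 2 lower (*Elovl3* and *Tecr*), with a median log2 fold change of 0.28. The lower count was 1 without M11640, where *Tecr* was at -0.89, and 4 without M9232, without T11640, with plain library totals or with edgeR. It also rose where *Elovl5* gained a call, without M11035 (-1.03), and where *Hsd17b12* did, with DESeq2 (-1.01) or without T9232 (-1.03). Of 7 desaturases other than *Scd1*, 4 were called lower (*Fads1*, *Fads2*, *Fads3* and *Scd3*) and 2 higher (*Scd2* and *Degs2*), with a median of -1.23. The higher count of 2 held in no fit with 1 library left out: it was 1 without M11035, M11640, M9232 or T11035 and 0 without T11640 or T9232, and it was 1 with edgeR and with DESeq2. *Fads3* was the lowest, at 33.8 to 66.2 CPM in the glands and 11.4 to 14.1 CPM in the tumors (-1.73 in log2, limma adjusted p = 0.0011). *Degs2*, a sphingolipid desaturase and hydroxylase, was the highest at 1.41 (limma adjusted p = 0.0237), from 2.31 to 6.02 CPM in the glands to 6.88 to 16.3 CPM in the tumors, and lost its call without M11640 (1.05), T11640 (1.27) or T9232 (1.18). Of 10 genes of acyl-CoA activation and binding, 5 were called lower (*Acsl1*, *Acsm3*, *Acsf2*, *Acsf3* and *Dbi*) and 1 higher (*Acsl3*), with a median of -1.28. *Acsl1*, the main acyl-CoA synthetase of adipose tissue, was at 1215, 1835 and 955 CPM in the glands and at 88.0, 110 and 88.1 CPM in the tumors (-3.75 in log2, limma adjusted p = 9.55e-06). *Acsl3* was at 44.6 to 52.4 CPM in the glands and 136 to 195 CPM in the tumors (1.72 in log2, limma adjusted p = 1.10e-04). Mitochondrial fatty acid synthesis, a separate pathway that makes the precursor of lipoic acid, had 3 of 8 genes called lower (*H2-Ke6*, *Mecr* and *Oxsm*) and 0 higher, with a median of -0.99. The count was 5 without M9232, and also with DESeq2 and with edgeR with or without the replicate block, and *Oxsm* lost its call without M11035 (-0.96). Its extremes were *H2-Ke6* (log2 fold change -1.92, limma adjusted p = 6.98e-04) and *Lipt1* (-0.42, not called). *Tecr*, *Hsd17b12*, *Fads1*, *Fads2*, *Acsm3*, *Acsf2*, *Acsf3*, *Dbi*, *Mecr* and *Oxsm* complete these counts and were chosen after their values were seen.

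**Figure D2:**
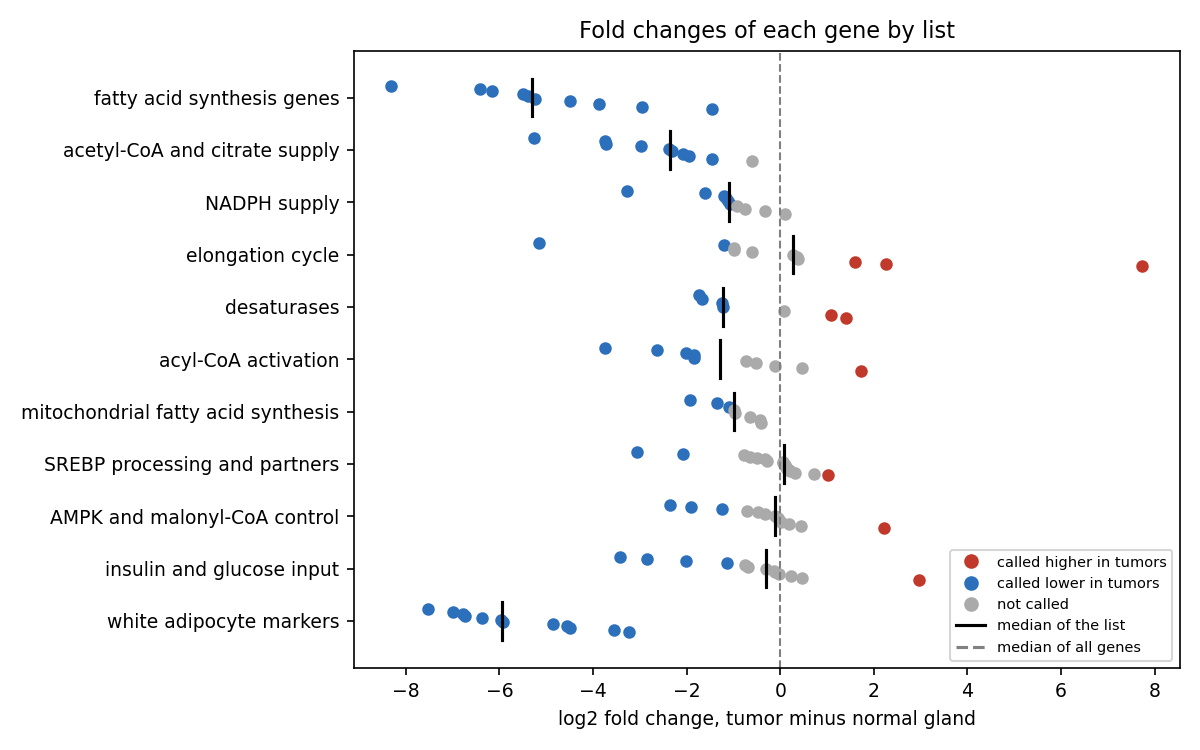
Log2 fold change (tumor minus normal gland, horizontal axis) of every gene of the 10 synthesis genes, the 9 lists of surrounding genes and the white adipocyte markers. Each point is 1 gene, colored by its call in limma, the black bars are list medians and the dashed line is the median of all genes at -0.0028. The synthesis genes (median -5.32) and the adipocyte markers (median -5.95) lie far to the left, while the lists of regulators lie near the median of all genes.

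Regulators of the pathway are compared here with the 28.2% called among all genes. Of 18 genes for sterol regulatory element-binding protein processing and its partner factors, 2 were called lower, 1 higher and 15 not (median 0.08, or 0.03 without M11640). *Insig1*, which retains the precursor protein in the endoplasmic reticulum and is itself a target of the factor, was at 250, 377 and 193 CPM in the glands and at 30.1, 34.6 and 29.4 CPM in the tumors. All tumors were below all glands, with a log2 fold change of -3.05 (SE 0.23, limma adjusted p = 2.73e-05). *Nr1h3*, the liver X receptor alpha, was the other gene called lower. *Scap*, the escort of the precursor to the Golgi, was at 13.8, 13.7 and 14.8 CPM in the glands and at 27.5, 27.9 and 32.2 CPM in the tumors. Its log2 fold change of 1.02 (SE 0.17, limma adjusted p = 0.00156) was at the threshold, and the call was lost without T9232 (0.95) and with a pseudocount of 1 (0.998). Of 13 genes of AMP-activated kinase and malonyl-CoA control, 3 were called lower (*Prkaa2*, *Mlycd* and *Prkag2*) and 1 higher (*Cpt1c*), with a median of -0.12. *Prkaa2*, a catalytic subunit of the kinase that phosphorylates and inhibits acetyl-CoA carboxylase, was at 123, 111 and 97.4 CPM in the glands and at 24.2, 28.7 and 13.2 CPM in the tumors (-2.36 in log2, limma adjusted p = 2.31e-04). *Cpt1c* was scarce and was at 0.813 to 1.49 CPM in the glands and 6.14 to 7.07 CPM in the tumors (2.21 in log2, limma adjusted p = 3.93e-04).

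Of 13 genes of insulin and glucose input, 4 were called lower (*Slc2a4*, *Pde3b*, *Pik3r1* and *Irs1*) and 1 higher (*Slc2a1*), with a median log2 fold change of -0.31, or -0.62 without M9232. *Irs1* (-1.14) lost its call without M11640 (-0.83), T11640 (-1.17) or T9232 (-0.98). The 2 glucose transporter genes went in opposite directions. *Slc2a4*, the insulin-responsive transporter of fat and muscle, was at 32.7, 37.0 and 14.9 CPM in the glands. In the tumors it was at 3.91, 3.28 and 0.450 CPM (21, 25 and 3 fragments, the last at the floor). *Slc2a1*, the widely expressed transporter, was at 24.2, 16.7 and 25.3 CPM in the glands and at 153, 158 and 212 CPM in the tumors. Neither gene had overlapping groups. Their log2 fold changes were -3.42 (SE 0.59, limma adjusted p = 0.00203), or -2.71 without T9232, and 2.96 (SE 0.21, limma adjusted p = 1.82e-05). *Nr1h3*, *Mlycd*, *Prkag2*, *Pde3b*, *Pik3r1* and *Irs1* are named to complete the counts and were chosen after their values were seen.

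Markers of the other cell types of a gland or tumor were measured in the same way, and their part in the fall of the synthesis genes was not tested. Brown adipocyte markers were called lower in 7 of 8 genes, with a median log2 fold change of -4.67, or -4.85 with *Ucp1*, *Cox8b*, *Elovl3* and *Otop1*, which did not exceed the floor in any tumor, set to it. The median was -5.90 and -3.99 with pseudocounts of 0.1 and 1, -6.20 with edgeR, -6.14 with the replicate block in edgeR and -6.26 with DESeq2. Their sum was 740, 523 and 257 CPM in the glands and 41.1, 41.2 and 76.3 CPM in the tumors. *Ucp1* was the most abundant in every gland, while *Dio2*, the gene not called, gave 32.6, 36.3 and 72.8 CPM of the sum in the tumors. Milk protein and alveolar genes were called lower in 9 of 10 genes (7 to 10 when 1 library was left out, median -4.66, or -5.35 with *Wap* and *Lalba* at the floor), and their sum was 786, 484 and 135 CPM in the tumors. Their median ran from -5.39 to -3.52 when 1 library was left out. *Csn1s1* was the most abundant (log2 fold change -3.84, its call lost without T11640 at -4.07, without T9232 at -3.01 and with the replicate block in edgeR at -3.34), and *Lalba* was at 0 in all 3 tumors, at least 14.8-fold lower there against the mean floor of the tumor libraries. Epithelial markers were called higher in 8 of 10 genes (7 or 8 when 1 library was left out, median 2.03, or 2.39 without M9232), with sums of 228, 285 and 501 CPM in the glands and 2034, 2463 and 2698 CPM in the tumors. *Epcam* was the most abundant of them in every gland (105, 122 and 227 CPM) and *Krt5* in every tumor (913, 989 and 1055 CPM). Squamous markers were called higher in 7 of 7 genes (median 7.25, or 7.46 with *Ivl*, *Lor* and *Sprr1b* of the glands at the floor). Their median was 9.01 with edgeR, 9.07 with the replicate block in edgeR and 8.44 with DESeq2. Their sums were 13.6, 15.2 and 15.2 CPM in the glands and 1629, 2921 and 2742 CPM in the tumors, with *Sbsn* the most abundant in every gland and *Krt10* in every tumor, and *Lor* was at 0 in all 3 glands.

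Sebaceous markers, listed because sebaceous cells also synthesize lipid, had 2 of 5 genes called higher (*Krt79* and *Soat1*) and 2 lower (*Mgst1* and *Mc5r*), with a median log2 fold change of -0.04. Among those with a mean of 1 CPM or more the lower count was 1 and the median 0.56. Their sum was 253, 356 and 365 CPM in the glands and 204, 252 and 254 CPM in the tumors, but its leading gene differed. *Mgst1* was the most abundant in every gland and was at 36.6 to 38.7 CPM in the tumors, where *Soat1* led with 152, 194 and 202 CPM. *Mc5r* was at 0 in every tumor, and *Krt79* did not exceed the floor in any gland.

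Hormone-sensing luminal markers had 1 of 6 genes called higher (*Areg*) and 4 lower (*Prlr*, *Pgr*, *Esr1* and *Foxa1*), with sums of 353, 487 and 545 CPM in the glands and 210, 124 and 79.0 CPM in the tumors. *Prlr* had the highest mean in the glands and *Gata3*, which was not called except without T9232 (1.02), in the tumors. *Areg* lost its call without T11035 (2.89), T11640 (2.88) or T9232 (2.87) and with DESeq2 (2.21), and the lower count was 2 without M11640, T11640 or T9232, where *Pgr* and *Foxa1* lost theirs. *Pgr* also lost its call without M11035 (-2.40) and *Foxa1* without M9232 (-1.50). Fibroblast markers had 4 of 7 called higher (*Col1a1*, *Col1a2*, *Pdgfrb* and *Col3a1*), with sums of 940, 3645 and 1676 CPM in the glands and 8499, 9131 and 8735 CPM in the tumors. *Dcn* had the highest mean in the glands (720 CPM, log2 fold change 0.09) and *Col3a1* in the tumors. Endothelial markers had 3 of 8 called lower (*Tek*, *Vwf* and *Kdr*), with sums of 377, 497 and 364 CPM in the glands and 209, 256 and 297 CPM in the tumors and *Pecam1* highest on average in both. This count was 1 without M11640 or T11035, and *Vwf* also lost its call without T11640 (-0.88) and *Kdr* without T9232 (-0.94). *Vwf* further lost its call with edgeR (-0.997) and with DESeq2 (-0.995). *Kdr* did so with a pseudocount of 1 (-0.996) and with DESeq2 size factors (-0.998).

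Macrophage markers, with *Lyz2* the most abundant in every library, had 1 of 8 called higher (*Itgam*), or 2 without T11035, with sums of 1112, 2024 and 3920 CPM in the glands and 1341, 2611 and 2547 CPM in the tumors. Neutrophil markers had 4 of 5 called higher (*S100a8*, *S100a9*, *Csf3r* and *Cxcr2*), with sums of 161, 72.3 and 112 CPM in the glands and 818, 1039 and 1409 CPM in the tumors and *S100a9* highest on average in both. All 6 B cell markers (sums of 699, 287 and 460 CPM against 9.30, 10.4 and 8.54 CPM, with *Cr2* the most abundant in every library and *Cd79a* and *Pax5* not above the floor in any tumor) were called lower. So were all 7 T cell markers (470, 185 and 339 CPM against 27.2, 29.6 and 43.9 CPM, with *Cd4* highest on average in both tissues). Skeletal muscle markers were unequal among the glands, at 4202, 1583 and 6.29 CPM in M11035, M11640 and M9232 and 15.6, 7.60 and 14.4 CPM in the tumors. *Myh4* had the highest mean in the glands and *Tnnt3* in the tumors, and *Ckm* and *Myh2* did not exceed the floor in any tumor. Of the 7 muscle markers 3 were called lower (*Myh1*, *Myh2* and *Mylpf*), which was 7 without M9232, 1 without M11035 and 0 without M11640 or any 1 of the tumors, and 7 with edgeR, 7 with DESeq2 and 5 with the replicate block in edgeR. Called markers, and those leading in 1 tissue only, were named after their values were seen, except the most abundant over all libraries and those at the floor.

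Each of the 10 genes was then set against the median of the 12 white adipocyte markers in the same library, on the log2(CPM + 0.5) scale. Relative to these markers, *Fasn* was at 3.54, 3.98 and 3.55 in the glands and at 3.54, 3.47 and 4.17 in the tumors. The 2 tissues overlapped, with a difference (tumor minus normal gland) of 0.04 in the log2 ratio (two-sided exact permutation p = 0.9). *Elovl6*, *Me1* and *Mlxipl* also overlapped, with differences of 0.30, 1.05 and 0.17 (exact p = 0.6, 0.2 and 1). This test does not use the pairs: the ratio of *Me1* was higher in the tumor than in the gland of all 3 mice, by little in T11640 against M11640 (3.74 and 3.67), while the pairs of *Elovl6* and *Mlxipl* differed in direction. With 3 samples a tissue, such a p does not show that the ratios are equal. Another 3 genes were higher relative to the markers in all tumors than in all glands, *Srebf1* by 4.08, *Acly* by 2.59 and *Acaca* by 1.68. The other 3 were lower in all tumors, with differences of -2.76 for *Thrsp*, -0.86 for *Scd1* and -0.62 for *Acacb*. For these 6 genes the exact p was 0.1, the smallest possible, and 0.15 after adjustment over the 12 ratios. *Srebf1* showed the widest contrast, at -2.62, -2.74 and -2.74 in the glands and 1.55, 0.64 and 1.97 in the tumors. The difference of *Mlxipl* changed sign with a pseudocount of 0.1, to -0.61, and without M9232 or T11035, to -0.13 and -0.36. That of *Fasn* was negative with a pseudocount of 1 and without M11035, M9232 or T9232, with a lowest value of -0.18, and that of *Elovl6* only without T9232 (-0.09). The ratios of *Acacb* (-0.70 to -0.53) and *Scd1* (-1.01 to -0.64) stayed negative when any 1 library was left out. The median of the markers' own fold changes is another reference. In the main limma fit both genes fell below it, with -6.17 for *Acacb* and -6.41 for *Scd1* against -5.95. Neither gene did so with edgeR (-6.89) or DESeq2 (-6.92), since the lowest log2 fold changes of *Acacb* and *Scd1* in 15 alternatives were -6.44 and -6.70.

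**Figure D3:**
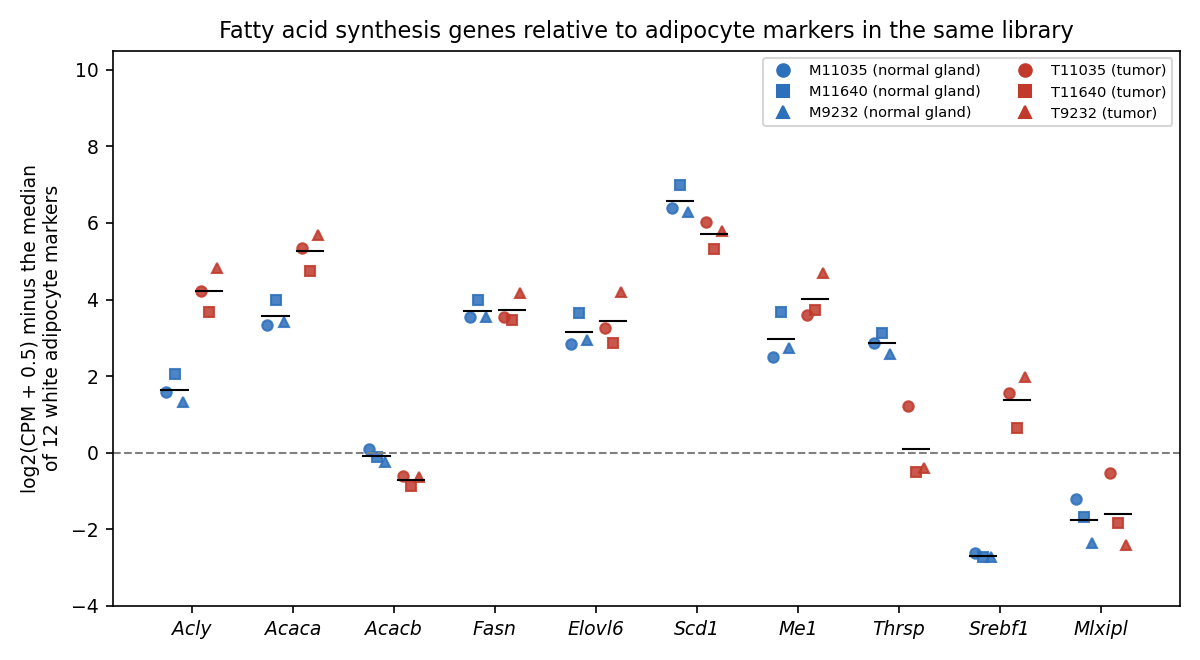
Level of each gene minus the median level of 12 white adipocyte markers in the same library, both as log2(CPM + 0.5). Blue symbols are normal glands, red symbols are tumors, each symbol shape is 1 mouse and the black bars are means of 3 libraries. *Acly*, *Acaca* and *Srebf1* are higher in all tumors, *Thrsp*, *Scd1* and *Acacb* lower in all tumors, and *Fasn*, *Elovl6*, *Me1* and *Mlxipl* overlap.

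The genes whose pattern over the 6 libraries was most like that of a member were found among the 14712 genes whose mean level reached 1 CPM. Likeness was the root mean square difference of log2(CPM + 0.5) values centered on each gene's own mean. The 5 genes closest to *Fasn* were *Abcd2* (0.249), *Elovl6* (0.250), *Adrb3* (0.318), *Gpr81* (0.322) and *Dhdh* (0.324). *Elovl6* and *Fasn* were the closest pair among the 10 genes, and *Fasn* was also the gene closest to *Elovl6*. For *Scd1* the closest gene was *Cdo1* (0.107), for *Acacb* the adipocyte marker *Plin1* (0.275), for *Me1* *Aspa* (0.229), for *Thrsp* *Ces1d* (0.304), for *Mlxipl* *Plin4* (0.475) and for *Srebf1* *Coq5* (0.0885). The genes closest to *Acly* and *Acaca* were *2010003K11Rik* (0.0864), which was at 0 in all 3 tumors, and *Serpina3c* (0.126). Likeness depends on the pseudocount for genes with few fragments in the tumors. These were *2010003K11Rik*, *Serpina3c* and *Adrb3*, none of them above the floor there, *Plin1* (1, 7 and 1 fragments), and *Gpr81* and *Ces1d* (tumor means of 0.573 and 0.802 CPM).

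Sequences around RefSeq starts of the synthesis genes were searched for short motifs bound by known regulators of lipogenic promoters. RefSeq promoter sequences (build GRCm38.p6, 250 bases before to 50 bases after a start) were at hand for 9 of the 10 genes, all but *Scd1*, as 13 promoters. Each of the 13 sequences occurs once and unchanged on its own mm9 chromosome in the orientation of the gene, and positions are given there. Other chromosomes were not searched. Both strands were searched for 5 motifs: the box bound by nuclear factor Y (CCAAT), the GC box bound by Sp1 (GGGCGG), the E-box (CACGTG), the TATA box (TATAAA), and a sterol regulatory element (TCACNCCAC, in which N is any base). A match is a description of letters and not evidence of binding. The nuclear factor Y box was found in 8 of the 13 promoters, covering 7 of the 9 genes, against 37.4% of all 32851 promoters of the table. The GC box was found in 5 of the 13 (35.7% of all promoters). The other motifs had 1 promoter each, the E-box (7.15% of all) and the sterol element (1.24% of all) in different promoters of *Mlxipl*, and the TATA box (13.6% of all) in *Acacb*. The promoters of *Elovl6* and *Acaca* held none of the 5 motifs in this window. However, the only *Acaca* promoter at hand (mm9 chr11:84008690-84008989) lies inside the gene, downstream of its GENCODE start at 83943174. That of *Acacb* also lies inside its gene, and that of *Fasn* lies wholly upstream of the GENCODE span. The sequences at the GENCODE starts of these 3 genes were thus not searched.

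Of the 6 genes with falls of over 5 on the log2 scale, the 4 with a motif match are shown, without *Elovl6*, which had no match, and *Scd1*, which had no promoter in the table. They run 5′ to 3′ on the strand of the gene, with every motif match in capitals. In *Fasn* (mm9 chr11:120685812-120686111, minus strand) the CCAAT matches begin at positions -90, -62 and -59 from the start, and the last 2 share 2 letters. Those at -90 and -59 are read on the other strand. In *Thrsp* (mm9 chr7:104566011-104566310, minus strand) they begin at -79, read on the other strand, and at -52. *Acacb* (mm9 chr5:114615277-114615576, plus strand) has CCAAT at -87 and the TATA box at -34. The first *Mlxipl* promoter shown (mm9 chr5:135582511-135582810, plus strand) has the sterol element at -136. The second (mm9 chr5:135565510-135565809, plus strand) has CCAAT read on the other strand at -173, the E-box at -98 and the GC box at -188 and -38.
Fasn: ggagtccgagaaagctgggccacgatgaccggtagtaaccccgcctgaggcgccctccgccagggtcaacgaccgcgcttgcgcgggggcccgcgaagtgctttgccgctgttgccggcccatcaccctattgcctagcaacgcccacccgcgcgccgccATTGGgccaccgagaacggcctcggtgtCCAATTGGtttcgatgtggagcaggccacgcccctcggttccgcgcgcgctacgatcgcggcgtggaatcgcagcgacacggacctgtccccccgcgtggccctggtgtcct
Thrsp: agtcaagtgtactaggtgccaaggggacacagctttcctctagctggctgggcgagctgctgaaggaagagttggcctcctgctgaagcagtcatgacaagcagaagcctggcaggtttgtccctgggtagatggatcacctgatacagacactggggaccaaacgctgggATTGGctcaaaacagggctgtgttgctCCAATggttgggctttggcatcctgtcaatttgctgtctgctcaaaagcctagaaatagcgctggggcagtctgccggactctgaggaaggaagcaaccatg
Acacb: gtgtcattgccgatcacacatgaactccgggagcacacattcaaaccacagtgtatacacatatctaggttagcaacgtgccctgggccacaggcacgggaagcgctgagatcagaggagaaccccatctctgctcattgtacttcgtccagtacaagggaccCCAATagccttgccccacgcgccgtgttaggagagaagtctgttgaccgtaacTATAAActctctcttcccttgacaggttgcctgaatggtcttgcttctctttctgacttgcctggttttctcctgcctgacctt
Mlxipl, first: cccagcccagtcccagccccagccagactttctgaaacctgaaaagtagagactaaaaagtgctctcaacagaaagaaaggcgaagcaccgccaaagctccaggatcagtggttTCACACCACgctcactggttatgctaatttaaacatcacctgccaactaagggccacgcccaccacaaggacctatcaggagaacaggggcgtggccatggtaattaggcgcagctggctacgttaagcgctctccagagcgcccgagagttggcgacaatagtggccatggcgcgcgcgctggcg
Mlxipl, second: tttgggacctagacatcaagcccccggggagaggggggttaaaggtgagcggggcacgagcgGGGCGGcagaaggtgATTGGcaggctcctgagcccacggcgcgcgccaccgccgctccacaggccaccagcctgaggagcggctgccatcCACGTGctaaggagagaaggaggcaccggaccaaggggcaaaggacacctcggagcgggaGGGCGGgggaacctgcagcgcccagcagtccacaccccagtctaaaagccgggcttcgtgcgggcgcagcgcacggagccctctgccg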

How the data were processed

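RNA-Seq of 3 mammary tumors and the 3 adjacent normal mammary glands of the same mice was used, with each library assigned to its tissue from the labels. The authors used CASAVA 1.8.2, aligned to mm9 with TopHat2 2.0.3, counted with HTSeq 0.5.3p9 and divided by the effective library size of edgeR 3.6.1. They deposited the resulting signal per gene, named CPM by them, for 15280 genes. The test had been planned for CPM, but columns need not sum to a fixed total on this size, so the unit was recorded as signal and the planned test was kept. Divided by its step, each column held whole numbers (tolerance 0.01) in 100% of values, from which fragments were recovered. Depth was 4750989, 6127715 and 7372155 fragments in M11035, M11640 and M9232 and 5116883, 7806908 and 6948233 in T11035, T11640 and T9232. No library repeated another of its tissue (lowest chi-square per degree of freedom 13.0).

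Genes were tested with limma 3.58.1 (R 4.3.3), two-sided and without a block, on log2(CPM + 0.5) values with the trend option, and adjusted by Benjamini-Hochberg over 15280 genes. Fold changes are on this scale, which understates the change of genes with low levels. Calls needed an adjusted p not above 0.05 and a change of 2-fold or more in either direction. The fit was tested on simulated data. Alternatives were pseudocounts of 0.1 and 1, a mean of at least 1 CPM, plain library totals, DESeq2 size factors, edgeR 4.0.16 and DESeq2 1.42.0 on recovered fragments (4462 and 4436 genes called), the mouse as a replicate block in limma and edgeR, and leaving out each library. Tumor and gland with the same number come from 1 mouse, so the numbers pair the samples. Over 14712 genes their deviations from the group means correlated with r = 0.107, 0.151 and 0.0168 in mice 11035, 11640 and 9232.

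Named genes are the 10 members, their paralogs, the highest and lowest gene of each list of surrounding genes, the most abundant marker of each cell type, markers at the floor, and the genes most like a member. Genes of small counts outside this rule are marked as chosen after their values were seen. The members and lists were chosen with earlier results of these data known. Positions and transcript lengths are from GENCODE vM1 (mm9), promoters are from RefSeq (GRCm38.p6), and transcripts were aligned with BLAST 2.17.0. *H2-Ke6* is the table's symbol for *Hsd17b8*. *Elovl2*, *Scd4*, *Cpt1b*, *Flg*, *Awat1*, *Awat2* and *Ly6g* of the lists are not among the 15280 genes.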

Additional observations from a re-analysis of the deposited data

How the results depend on the processing

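All 10 synthesis genes were called lower in each of the 15 alternatives. Their median log2 fold change (-5.32) ran from -5.63 without normal gland M9232 to -4.96 without tumor T9232. The median of the white adipocyte markers (-5.95) was -6.86 and -5.31 with pseudocounts of 0.1 and 1, -6.89 with edgeR, -6.92 with DESeq2 and -6.91 with the replicate block in edgeR, and these markers include several at few fragments in tumors, where the pseudocount weighs on the value. The log2 ratio of *Mlxipl* to the adipocyte median (0.17) was -0.61 with a pseudocount of 0.1, and from -0.36 to 0.58 leaving out a library. With the replicate block, limma called 4298 and edgeR 4462 genes (4309 without it in limma), and all 10 synthesis genes kept their calls. The median of the macrophage markers (0.46) ran from -0.0565 without M11035 to 0.76 without M9232. Leaving out a library moved the markers called lower to between 0 and 7 of 7 for skeletal muscle, 1 and 3 of 8 for endothelium and 2 and 4 of 6 for hormone-sensing cells, and the desaturases called higher to 0 or 1 of 7. Of 215 genes followed, 71 gene results lost a call, 46 gained one and 3104 kept their side of the threshold. The cause of these changes was not tested. With 3 mice, 1 library decides much of the spread, and levels under 3 fragments were not told apart from 0.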
